A study of Mus musculus with 6 samples.

Results

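The knockout of leukemia inhibitory factor (LIF) was compared with the wild type in the mouse optic nerve at postnatal day 14. All probes of 2 of the 6 arrays of the series were used, and these arrays were taken by their labels. The comparison was chosen with earlier results of these data known. The knockout array carried RNA of mice labelled LIF-/- on CD1 background and the other that of CD1 wild type mice, CD1 being an outbred laboratory stock. Both pools were of 8 untreated nerves of males, and the sources used here do not say how many animals gave them, whether these were littermates or which part of Lif is disrupted. The remaining 4 arrays held the same genotypes at days 10 and 35, with pools of 10 and 4 nerves, and are used only to set the values of day 14 beside other ages. With 1 pooled array a genotype there is no replicate, so every value below is a difference between 2 arrays, without an error or a test, and 2 further pools might differ as much.

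LIF is a cytokine of the interleukin-6 family. It binds the LIF receptor, which pairs with gp130 and activates the JAK kinases and the transcription factor STAT3, and STAT3 in turn induces Socs3, a feedback inhibitor of the receptor. In the optic nerve and other white matter LIF is known as a signal that astrocytes release and that favours the survival and maturation of oligodendrocytes. Oligodendrocytes wrap the axons of retinal ganglion cells in myelin, which at this age is being laid down, and microglia, astrocytes, vessels and a meningeal sheath make up most of the rest of the nerve.

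Signals were read as mean bead intensity, corrected for background, quantile normalized and taken to log2, and a difference is given as knockout minus wild type in log2 units. Pairs of raw signals give the knockout before the wild type. A probe was counted as detected at a detection p below 0.05, which held for 12524 probes on the knockout and 12222 on the wild-type array of 24606, with 11690 detected on both. The raw median was 51.8 on the knockout and 61.8 on the wild-type array. Both arrays lay on 1 slide, which also held those of day 10. The day 35 arrays lay on another slide, so for day 35 age and slide cannot be told apart. Raw signals set side by side across ages were not normalized. Myelin and astrocyte probes were bright, as the tissue label implies, such as Mbp, myelin basic protein, at raw signals of 16900 (knockout) and 20175 (wild type) and Aqp4, the water channel of astrocytes, at 3612 and 2934. Eif2s3y and Kdm5d, genes of the Y chromosome, were detected on both arrays, with raw signals of 524 and 702 for the former. At the ages set beside day 14 this was not so on every array, since Eif2s3y was not detected in the day 10 wild type (55.4) and neither gene in the day 35 knockout (39.5 and 37.5). Lif itself read near background in both genotypes, at raw signals of 56.0 and 76.6 and a difference of -0.35, and since the disrupted stretch of Lif is unknown here, this probe does not check the genotype.

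The 2 arrays were close over most probes. The differences had a median of 0.00 and an SD of 0.31 over the 11690 probes, and 91.1% lay within 0.5 of 0. The SD was 0.44 between the genotypes at day 10 and 0.39 at day 35. At 2-fold, a difference of 1 log2 unit, 50 probes (0.428%) were higher and 65 (0.556%) lower in the knockout, of which 35 and 48 could be named. With 1 probe a gene, its brightest, 33 of 6203 named genes (0.532%) were past 2-fold higher and 34 (0.548%) lower. The share past 2-fold was 0.65% in the dimmest of 4 equal bins of signal, 1.71% and 1.20% in the middle bins and 0.376% in the brightest.

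**Figure D1:**
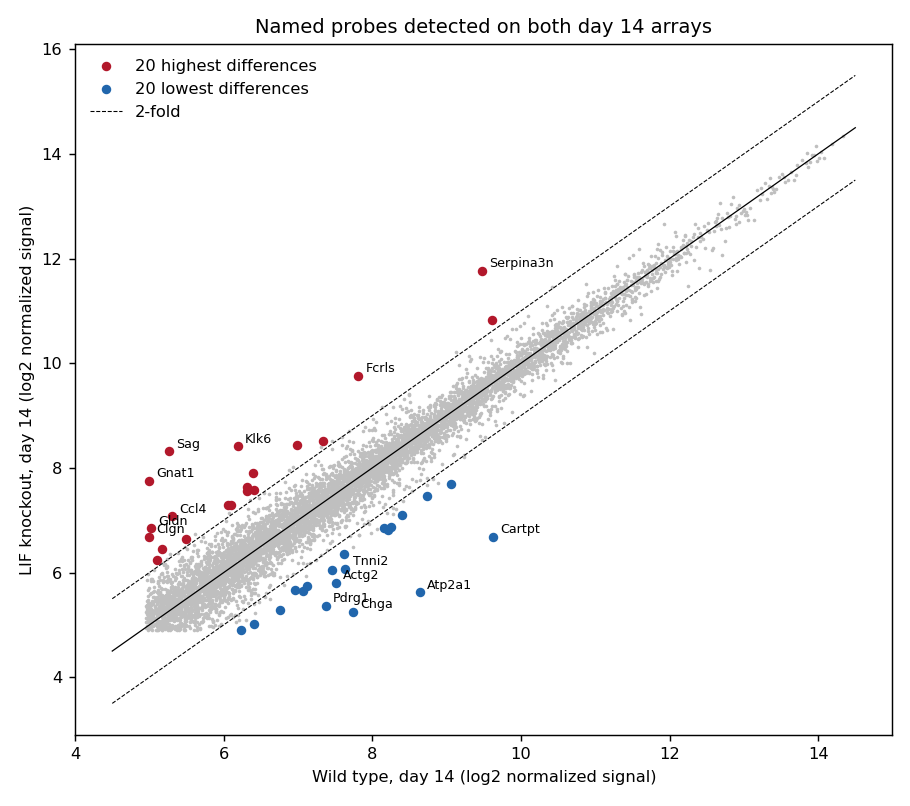
Log2 normalized signal of each named probe detected on both day 14 arrays, wild type on the x axis and LIF knockout on the y axis, with a solid line at equal signal and dashed lines at 2-fold. The probes with the 20 highest differences are red and those with the 20 lowest blue, from 3.05 for Sag to -3.01 for Atp2a1, and all 40 lie below a log2 signal of 10 on at least 1 array.

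Response genes of the LIF receptor, gp130 and STAT3 read higher in the day 14 knockout than in the wild type. Of 34 members measured, 30 were detected on both arrays, 26 of them above 0 against 52.4% of all named genes, and their median was 0.27 against 0.02 over all named genes. 4 passed 2-fold higher and 0 lower. This list and those below were written with earlier results of these data known, so their counts are description alone. Serpina3n, a secreted inhibitor of serine proteases and an acute-phase gene, had raw signals of 3044 in the knockout and 773 in wild-type nerves, a difference of 2.30. Socs3 had raw signals of 194 and 119, a difference of 1.18. Osmr, the receptor chain for oncostatin M that also pairs with gp130, read 243 and 154, a difference of 1.08. Icam1, the adhesion molecule bound by leukocyte integrins, read 349.7 and 214, a difference of 1.06.

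The receptor and kinase members lay nearer to 0 than these response genes. Il6st, which encodes gp130, was at -0.11, at raw signals of 69.6 and 86.9, and the kinases Jak1, Jak2 and Tyk2 were at 0.37, 0.20 and 0.25, with another probe of Tyk2 at -0.49. Stat3 was at 0.72, from raw signals of 1571 and 1140, and another probe of the gene gave 0.85. Junb, a transcription factor of the AP-1 family, was at 0.99, Lcn2, the iron-scavenging lipocalin, at 0.82, and Ptpn6, a phosphatase of blood cells that dampens cytokine receptors, at 0.70. Other members lay near or below 0. Gfap, the filament protein of astrocytes, was at 0.10, Socs1 at 0.01, the repressor Bcl6 at -0.19 and the phosphatase Ptpn11 at -0.22 on its brighter and 0.55 on its dimmer probe. Ligands of the family were dim, with Ctf1, cardiotrophin 1, at 0.45 and raw signals of 79.4 and 77.3. The summed raw signal of the 34 members was 20622 in the knockout and 17398 in wild-type nerves, although the knockout array was dimmer as a whole.

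At the other ages the list lay on the other side of 0, with a median of -0.27 at day 10 and -0.18 at day 35, and whether the ages differ was not tested. Serpina3n read 674 in the knockout and 2731 in wild-type nerves at day 10, and 663 and 2352 at day 35, so that its day 14 values stood in the reverse order. Osmr read 155 and 248 at day 10 and 161 and 399 at day 35. For Serpina3n the signal of the day 14 knockout thus lay near those of the wild type at days 10 and 35, and that of the day 14 wild type near those of the knockout. Osmr had this order too, and Fcrls, described below, did not. These are single genes, and the cause of the order was not tested. Counts over all probes past 2-fold are given below. The genotype labels were taken as given, and they set the sign of every difference here.

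**Figure D2:**
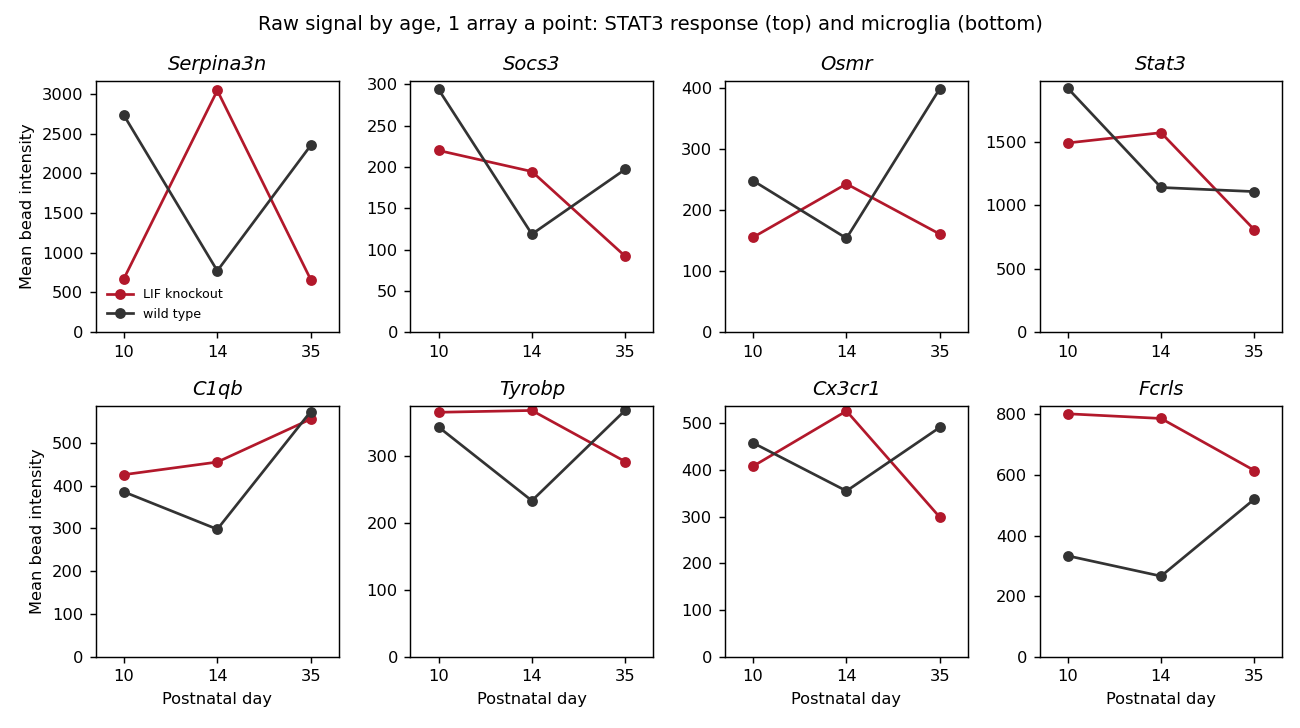
Raw mean bead intensity, on a linear axis from 0, against postnatal day for 4 genes of the STAT3 list (top) and 4 of the microglia list (bottom), 1 array a point, knockout red and wild type black, with no error bars because each group is 1 array. Serpina3n, Osmr and Cx3cr1 were higher in the knockout at day 14 and lower at days 10 and 35, while Fcrls was higher in the knockout at each age. The oldest age was on another slide than the other ages.

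The promoters of 3 of the 4 members past 2-fold are shown because these genes read higher together and STAT3 binds DNA at a known motif. The sequences are those of RefSeq, build GRCm38.p6, from 250 bases before the gene's start to 50 after it, 5′ to 3′ on the gene's strand. Capitals mark matches to TTCNNNGAA, the motif of STAT dimers, which reads alike on both strands. Socs3 lies at chr11:117969317-117969616 (minus strand), Icam1 at chr9:21015690-21015989 (plus strand) and Serpina3n at chr12:104406458-104406757 (plus strand).
Socs3: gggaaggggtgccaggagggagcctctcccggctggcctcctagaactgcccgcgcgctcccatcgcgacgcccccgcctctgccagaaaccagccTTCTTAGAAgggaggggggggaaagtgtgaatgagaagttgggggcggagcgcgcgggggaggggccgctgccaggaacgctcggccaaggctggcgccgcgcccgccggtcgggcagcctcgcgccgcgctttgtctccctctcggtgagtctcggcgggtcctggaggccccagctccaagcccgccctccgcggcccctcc
Icam1: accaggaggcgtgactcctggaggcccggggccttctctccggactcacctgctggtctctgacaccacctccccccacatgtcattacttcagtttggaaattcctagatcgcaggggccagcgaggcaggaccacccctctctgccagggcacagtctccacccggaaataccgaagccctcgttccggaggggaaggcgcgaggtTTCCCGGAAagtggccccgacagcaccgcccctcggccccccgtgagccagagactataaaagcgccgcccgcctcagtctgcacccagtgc
Serpina3n: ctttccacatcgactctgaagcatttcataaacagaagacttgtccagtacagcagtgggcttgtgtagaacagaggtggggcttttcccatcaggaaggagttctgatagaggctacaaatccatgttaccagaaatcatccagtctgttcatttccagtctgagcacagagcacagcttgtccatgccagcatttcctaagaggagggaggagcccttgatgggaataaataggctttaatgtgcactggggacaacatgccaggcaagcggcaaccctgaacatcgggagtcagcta
A match began 154 bases before the start of Socs3 and 42 bases before that of Icam1, and no match lay in the windows of Serpina3n and Osmr, so 2 of the 4 held the motif. It was found in 8.30% of 32851 mouse promoters of the same length. A match is a description of the letters and says nothing of binding in these nerves.

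Genes of microglia and macrophages, the resident phagocytes of the nerve, had the highest median of the lists, with most members higher in the knockout. Of 32 measured, 26 were detected on both arrays, 23 of these were above 0, and the median was 0.60, with 3 past 2-fold higher and 0 lower. Fcrls, a receptor-like surface protein of mouse microglia, had raw signals of 786 in the knockout and 266 in wild-type nerves, a difference of 1.95. C1qc, a chain of complement C1q, read 392 and 246, a difference of 1.02, and Tyrobp, the signalling adaptor of Trem2, read 367 and 233, a difference of 1.0. Of the defining markers, Aif1, known as Iba1, was at 0.95 and its other probe at 0.60, Cx3cr1, the fractalkine receptor, was at 0.87, and Csf1r has no linked probe.

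The remaining C1q chains stood at 0.94 for C1qb and 0.66 for C1qa, and the receptors Trem2 and Fcgr3 at 0.74 and 0.77. Laptm5, the brightest probe of the list, read 2527 and 2001 for a difference of 0.63. The 3 members below 0 were Unc93b1 at -0.32, Gpr34 at -0.30 and Spi1, the transcription factor PU.1, at -0.04. P2ry12, the nucleotide receptor by which resting microglia are often told from other macrophages, was above background on neither array. Of the other 2 members at background on both arrays, Fcer1g and Lyz1, neither gives a difference. The summed raw signal of the 32 members was 12215 in the knockout and 10367 in wild-type nerves. In RNA of whole nerves, more cells of a type and more RNA per cell cannot be told apart, here and in every list below. In the same pools rod genes read higher, with a median of 0.42, and endothelial, skeletal muscle and pituitary genes lower, with medians of -0.27, -0.45 and -0.36, and their part in the values of microglia and STAT3 genes was not tested. At days 10 and 35 the medians of the list were -0.21 and -0.45, and among the members past 2-fold Fcrls alone was above 0 at all ages, at 1.13 on day 10 and 0.25 on day 35.

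Lists that share cells or signals with microglia had smaller medians. The interferon and antigen presentation list had 22 of 30 members above 0 and a median of 0.28, with 2 past 2-fold higher, H2-DMa, a chain of the peptide loader of class II molecules, at 1.19 and Gbp2b, an interferon-induced GTPase, at 1.17. H2-Aa, a class II chain, and Cd74, the class II invariant chain, were at 0.90 and 0.76, while H2-Ab1, the partner of H2-Aa, was at -0.82, with its other probe at -1.10. These partner chains therefore differed in opposite directions between the pools. H2-Ea, a further class II gene that is in none of the lists, was at 1.15. The class I genes H2-K1, H2-D1 and B2m were at 0.28, -0.04 and 0.05. Among interferon-induced genes, Bst2 was at 0.65 and Ifitm1 at 0.44, and Ifit2 at -0.30.

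In the chemokine and cytokine list 16 of 24 members were above 0 and the median was 0.25, with Ccl4 and Cxcl10 past 2-fold. Ccl4, a chemokine of activated macrophages, had raw signals of 145 and 71.4, a difference of 1.77, and Ccl3, a chemokine of the same family, was detected in the knockout alone, at least 1.96-fold higher. Cxcl10, an interferon-induced chemokine, read 192 and 113, a difference of 1.24, and Ccl12 was at 0.89 and 0.55 on its pair of probes. Csf1, the growth factor of microglia, was at 0.67. On the other side lay the pair Cxcr4 and Cxcl12, a receptor and its ligand, at -0.62 and -0.47, with the dimmer probe of Cxcl12 at -0.06. Phagocyte lysosome genes had a median of 0.18, with 17 of 23 above 0, led by the proteases Ctsd at 0.90 and Ctsz at 0.65, and 0 past 2-fold. Among lymphocyte, mast cell and granulocyte genes, with 4 of 8 above 0 and a median of -0.06, the calgranulins S100a8 and S100a9 of neutrophils were at -1.26 and -0.98.

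The reactive astrocyte list, genes that astrocytes raise after injury, had 16 of 17 members above 0 and a median of 0.26. Its 3 members past 2-fold, Serpina3n, Cxcl10 and Osmr, also stand in the lists above, as do Lcn2, Timp1, Gfap and Cd14, so the lists are not separate evidence. Of members not shared with them, Hspb1, a small heat shock protein, was at 0.76, and Tnc, the matrix protein tenascin C, was the single member below 0, at -0.72. The general astrocyte list showed no common direction, with 13 of 25 above 0 and a median of 0.04. In it Clu, clusterin, was at 0.74, Mlc1 at 0.73 and Aqp4 at 0.55, while Aldoc, a glycolytic enzyme, was at -0.58 (its dimmer probe at -1.30), Dio2, which activates thyroid hormone, at -0.50 and Glul, glutamine synthetase, at -0.45.

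**Figure D3:**
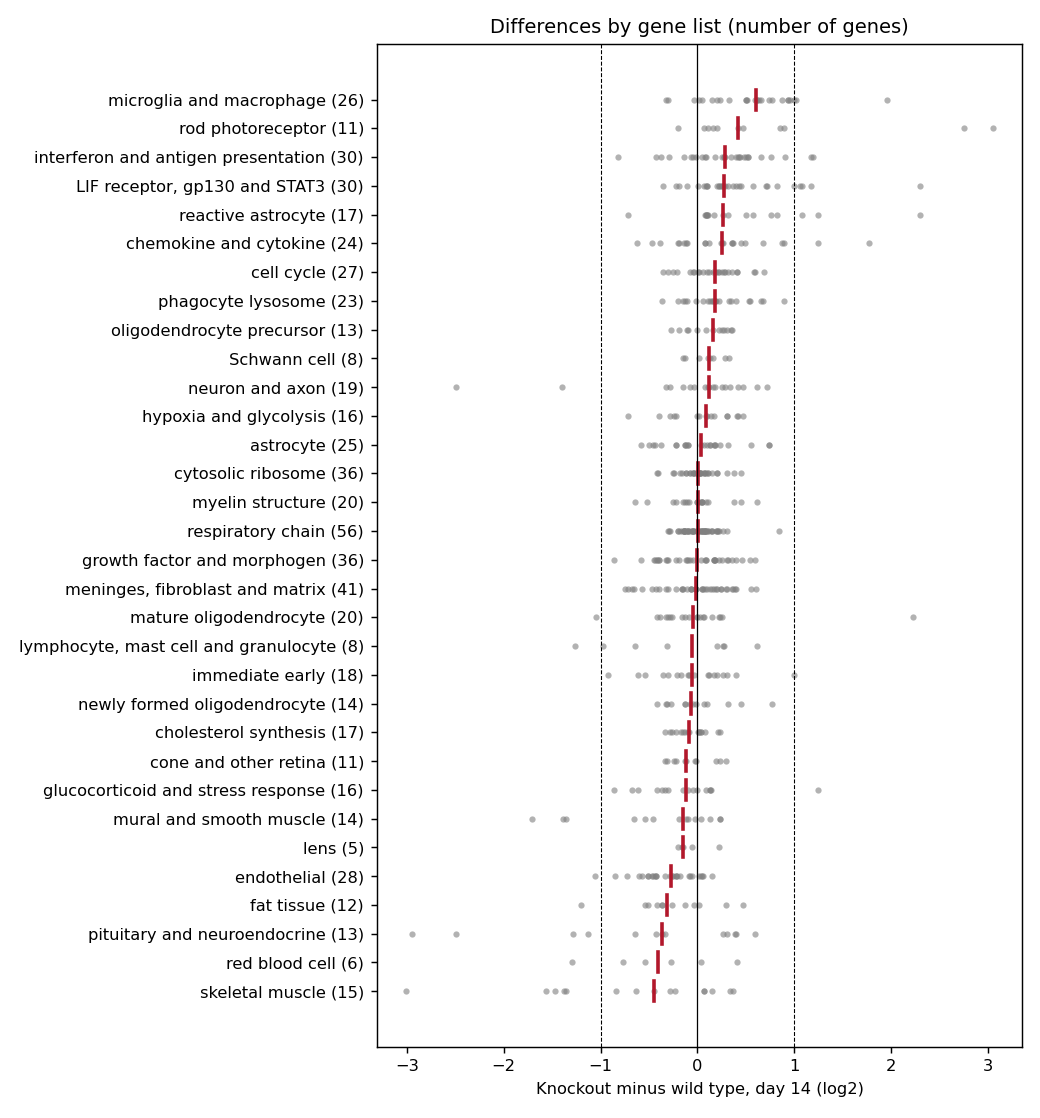
Difference of log2 signal, knockout minus wild type at day 14, for each gene detected on both arrays (grey points) and the median (red bar) of the lists with at least 5 such genes (housekeeping genes left out), ordered by median, with the number of genes in brackets and dashed lines at 2-fold. Microglia and macrophage genes stand at the top with a median of 0.60 and skeletal muscle genes at the bottom with -0.45.

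Myelin and oligodendrocyte genes, the subject of the series, lay close to 0 as groups at day 14. Of the 20 members of the myelin structure list 10 were above and 8 below 0, with a median of 0.01 and 0 past 2-fold, where day 10 had a median of -0.68 and day 35 of 0.06. Mbp and Mag, among the brightest probes, have a difference of 0.00 that quantile normalization sets by rank, and Mag read 18305 and 21105 raw. Mog, the myelin oligodendrocyte glycoprotein of the outer sheath, was the lowest member at -0.64, with its other probe at -0.76, and raw signals of 3771 and 6781. Pllp, plasmolipin, was at -0.52. Higher in value were Nfasc, neurofascin of the node and paranode, at 0.62, Cntn2, an axonal and glial adhesion molecule beside the node, at 0.45 and Gjb1, connexin 32, at 0.37. Cntn2 and Gjb1 had been at -3.71 and -2.28 on day 10.

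The mature oligodendrocyte list had a median of -0.05 (8 of 20 above 0), against -1.12 at day 10. Its extremes were Klk6, a secreted protease of mature oligodendrocytes, at 2.22 and Gsn, the actin-severing protein gelsolin, at -1.05. Klk6 read 326.5 in the knockout and 105 in wild-type nerves at day 14, 45.3 and 109.7 at day 10, where the knockout value was not above background, and 1151 and 2431 at day 35. Its knockout signal at day 14 was thus between the wild-type signals of days 14 and 35. Trf, transferrin, and Apod were at 0.25 and -0.16. Newly formed oligodendrocytes had a median of -0.06 (5 of 14 above 0), with Tnr, tenascin R, at 0.77 and Enpp6 and Gpr17 at 0.31 and 0.09. Precursor genes had a median of 0.16 (9 of 13 above 0), with Pdgfra, the receptor for their mitogen, at -0.27. Olig2 was detected in the wild type alone, at least 1.79-fold lower in the knockout. Enzymes of cholesterol synthesis had a median of -0.08 (8 of 17 above 0), from -0.33 for Idi1 to 0.23.

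Genes of the cell cycle had 20 of 27 members above 0 and a median of 0.18, with 0 past 2-fold, from -0.36 for Mcm6 to 0.69 for Birc5, survivin. The dimmer probes of these genes were at 0.16 for Mcm6 and 0.18 for Birc5. Tk1, thymidine kinase, was detected in the knockout alone, at least 1.88-fold higher. The list median was 0.44 at day 10 and -0.16 at day 35. Neuron and axon genes had 12 of 19 above 0 and a median of 0.12. Among them Gap43, the growth cone protein, was at 0.72 and Thy1, a surface protein of ganglion cells, at 0.47, and Nefh, the heavy neurofilament of mature axons, read 83.5 and 215 for a difference of -1.40.

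Endothelial genes, which mark the lining of vessels, read lower in the knockout nearly throughout. Of 28 detected on both arrays 23 were below 0, against 47.4% of all named genes, and the median was -0.27, with 1 past 2-fold lower. That member, Slco1c1, the thyroid hormone carrier of the blood-brain barrier, read 205 in the knockout and 472 in wild-type nerves, a difference of -1.06. Ly6c1 was at -0.85, Tek, the angiopoietin receptor, at -0.73 and Spock2 at -0.60. Egfl7 was at -0.47 and -0.54 on its pair of probes. The defining markers were at -0.51 for Pecam1, -0.22 for Cldn5 and 0.05 for Cdh5, and the summed raw signal of 31 members was 12413 and 17678. Over all probes the mean raw signal was 236 on the knockout and 280 on the wild-type array. Every summed signal here and below is to be read beside these means. The medians at days 10 and 35 were 0.46 and 0.27.

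Several contractile genes of the mural and smooth muscle list were among the lowest of all. Acta2, smooth muscle actin and a defining marker of mural cells, read 40.6 in the knockout, at background, against 167 in the wild type, which gives at least 4.89-fold lower. For a probe detected on 1 array, such a bound sets its signal against the lowest normalized signal of any probe detected on the other array, or the probe's own if higher. Among probes detected on 1 of the arrays, 16 of 1366 (1.17%) were at least 2-fold higher in the knockout by this bound and 22 (1.61%) lower. Actg2, Myh11 and Tpm2, an actin, a myosin and a tropomyosin of smooth muscle, were at -1.71, -1.38 and -1.36, and Tpm2 also stands in the skeletal muscle list, which was lower in the same pool. Mylk and Cald1, further genes of contraction, were at -0.02 and 0.23, the receptors Notch3 and Pdgfrb at -0.46 and -0.19 and the channel Kcnj8 at 0.23. The list as a whole had a median of -0.15, with 10 of 14 below 0. Its summed raw signal was 4388 in the knockout and 5835 in wild-type nerves. Genes of meninges, fibroblasts and matrix had no common direction (20 of 41 above 0, median -0.01), with Fbln2, Sparc and Col3a1 at -0.75, -0.67 and -0.65 and Crabp2 and Aebp1 at 0.60 and 0.56.

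Markers of tissues around the nerve differed between the pools, in both directions. Rod photoreceptor genes, which have no place in the nerve itself, were higher in the knockout. Sag, the arrestin of rods, read 308 and 70.4, a difference of 3.05, the highest of all named probes detected on both arrays, and Gnat1, rod transducin, read 215 and 63.5, a difference of 2.75. Of all 24606 probes, 834 were detected on the knockout array alone and 532 on the wild-type array alone. Of 16 rod genes measured, 11 were detected on both arrays (10 above 0, median 0.42) and 5 on the knockout array alone. The latter were Nrl, the transcription factor that sets rod fate, at least 4.05-fold higher, Pde6g, a subunit of the rod phosphodiesterase, at least 3.44-fold, Crx, the photoreceptor homeobox factor, at least 2.57-fold, Prph2, peripherin of the disc rim, at least 2.47-fold, and Guca1a, an activator of guanylate cyclase, at least 2.05-fold. Genes of the list that other cells also use, Prom1 and Gnb1, were at 0.07 and -0.20 and made up most of its summed raw signal of 4223 and 4112. Cone and other retina genes did not follow (3 of 11 above 0, median -0.12).

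The promoters of Sag and Crx are shown because the higher rod genes include Crx, whose protein binds the motif TAATCC. They are given as above, with matches to TAATCC on either strand in capitals, for Sag at chr1:87803430-87803729 (plus strand) and Crx at chr7:15879906-15880205 (minus strand).
Sag: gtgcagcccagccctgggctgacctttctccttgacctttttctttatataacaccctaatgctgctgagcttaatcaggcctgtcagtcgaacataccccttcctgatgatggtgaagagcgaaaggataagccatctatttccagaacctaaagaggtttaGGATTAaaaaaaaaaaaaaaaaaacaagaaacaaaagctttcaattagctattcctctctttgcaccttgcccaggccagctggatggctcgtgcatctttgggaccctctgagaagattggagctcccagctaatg
Crx: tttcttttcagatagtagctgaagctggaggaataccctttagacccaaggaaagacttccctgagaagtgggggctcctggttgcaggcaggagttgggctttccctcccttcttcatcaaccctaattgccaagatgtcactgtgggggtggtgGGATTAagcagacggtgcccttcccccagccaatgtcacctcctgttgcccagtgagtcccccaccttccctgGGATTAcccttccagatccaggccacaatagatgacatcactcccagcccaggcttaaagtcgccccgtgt
Of the 7 rod genes past 2-fold or with a bound past 2-fold, 5 had a promoter in the table, and those of Sag, Crx and Guca1a held the motif while those of Nrl and Prph2 did not. The motif was found in 7.06% of the 32851 promoters.

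Skeletal muscle, pituitary and fat genes went the other way. Acta1, skeletal actin, read 42.5 in the knockout, at background, against 339 in the wild type, at least 11.1-fold lower. Atp2a1, the calcium pump of fast muscle, read 68.2 and 441.9, a difference of -3.01, and the fast troponins Tnni2, Tnnt3 and Tnnc2 were at -1.56, -1.47 and -1.38. Of 30 muscle genes 15 were detected on both arrays, 10 of them below 0, with a median of -0.45 and 5 past 2-fold lower. A further 7 were detected in the wild type alone, as were 532 of all 24606 probes. Another 8, among them the defining marker Ckm, were detected on neither array. The summed raw signal was 9456 and 11856, and the knockout array was dimmer as a whole. At day 35 the median was 1.28, with Acta1 at 2419 in the knockout and 61.0 in wild-type nerves.

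Cga, the shared alpha chain of pituitary glycoprotein hormones, had the largest bound of all, with 49.6 in the knockout, at background, against 630.1 in the wild type, at least 20.3-fold lower. Cartpt, a neuropeptide precursor, read 115.5 and 861, a difference of -2.94. Chga, Scg2 and Chgb, proteins of secretory granules, were at -2.49, -1.29 and -1.13, and Tshb, the beta chain of thyrotropin, was at least 2.30-fold lower. Other pituitary and neuroendocrine genes were near or above 0, such as Cpe at 0.26 and Avp, vasopressin, at 0.59, and Prl and Gh were detected on neither array. The list median was -0.36, with 8 of 13 below 0, and its summed raw signal was 3709 and 6377. Fat tissue genes had a median of -0.32 (9 of 12 below 0), with Ucp1, the uncoupling protein of brown fat, at least 3.98-fold lower and the defining marker Adipoq at least 1.93-fold lower. Red blood cell genes had a median of -0.41 (4 of 6 below 0), with the globins Hba-a1 at -0.77, Hbb-bt at -1.30 and Hbb-b2 at 0.40. The lens crystallin Cryga was at least 2.85-fold lower. What part the surrounding tissue in each pool has in the other differences was not tested, and each gene group above was measured in the same 2 pools.

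**Figure D4:**
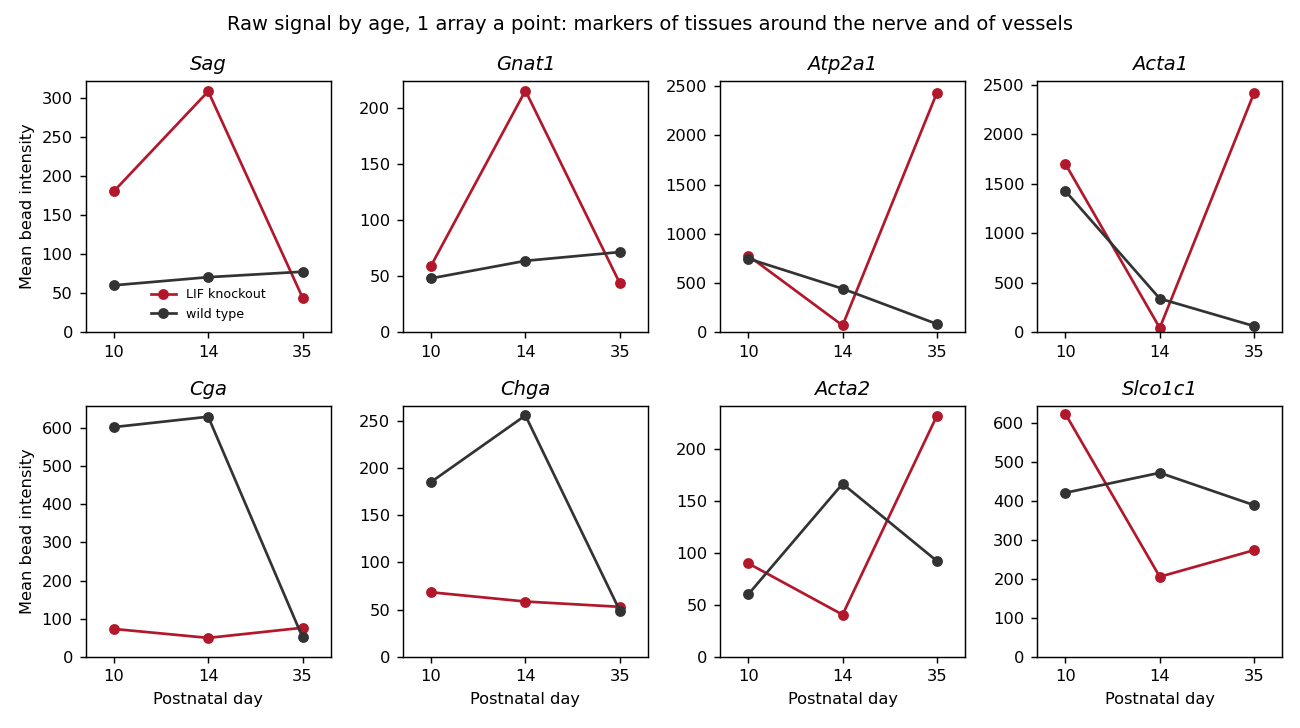
Raw mean bead intensity, on a linear axis from 0, against postnatal day for rod (Sag, Gnat1), skeletal muscle (Atp2a1, Acta1), pituitary (Cga, Chga), smooth muscle (Acta2) and blood-brain barrier (Slco1c1) genes, 1 array a point, knockout red and wild type black, with no error bars because each group is 1 array. At day 14 the rod genes stood at 308 and 215 in the knockout against 70.4 and 63.5, while Acta1 stood at 42.5 against 339 and Cga at 49.6 against 630.1. The oldest age was on another slide than the other ages.

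Groups of common cell functions lay at 0. Cytosolic ribosome genes had a median of 0.01 (18 of 36 above 0), respiratory chain genes 0.00 (29 of 56), housekeeping genes 0.00 (6 of 12) and growth factors and morphogens 0.00 (18 of 36). In the respiratory chain list Ndufb10, a subunit of complex I, stood apart at 0.85. Igfbp6, a binding protein of insulin-like growth factors, was the lowest growth factor gene at -0.86. Schwann cell genes had a median of 0.12 (6 of 8 above 0) and hypoxia and glycolysis genes 0.09 (10 of 16). Immediate early genes, with 8 of 18 above 0 and a median of -0.06, ranged from -0.92 for Dusp1, a phosphatase of MAP kinases, to 0.99 for Junb. The glucocorticoid and stress list had a median of -0.12 (5 of 16 above 0), from Cdkn1a, a cell cycle inhibitor, at -0.86 to Hmox1, heme oxygenase 1, at 1.24. Another probe of Cdkn1a was at -0.06. Lens genes had a median of -0.15 (1 of 5 above 0), and pigment cell genes -0.14 with 3 genes detected on both arrays.

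Of the genes named past 2-fold, 15 of 35 on the higher and 22 of 46 on the lower side belonged to a list, as did 10.0% of the 6205 named genes with a probe detected on both arrays, though the lists are no independent choice. Among the 20 highest, those in no list were Gldn, gliomedin, which clusters sodium channels at peripheral nodes, at 1.83, Clgn, a chaperone of the endoplasmic reticulum, at 1.68, Lrg1, an acute-phase glycoprotein, at 1.52, Prss35 at 1.45, Cpxm1 at 1.33, Fxyd7, a regulator of the sodium pump, at 1.28, Col16a1, a collagen, at 1.22 and Bmp2k at 1.15. H2-Ea, given above, completes them. Lrg1 read 237 in the knockout and 118 in wild-type nerves and Col16a1 read 1630 and 851. Ttr, the thyroid hormone carrier transthyretin that choroid plexus and pigment epithelium make, was at least 4.01-fold higher, and Ccl8, a chemokine, Was, the actin regulator of blood cells, Cfi, complement factor I, and Col27a1 were at least 3.11, 2.71, 2.35 and 2.24-fold higher.

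On the lower side Pdrg1 was at -2.01, at raw signals of 61.1 and 205, Snx5, a sorting nexin of endosomes, at -1.41, Rph3a, rabphilin of secretory vesicles, at -1.27 and Ankrd17 at -1.26, with 0.05 and -1.33 on the probes of Uck1, a uridine-cytidine kinase. The dimmer probe of Ankrd17 was at -0.08. Ces1d, a carboxylesterase, and Gna12, a G protein subunit, were at least 7.19-fold and 3.05-fold lower. Snx5 had the same sign at days 10 and 35, at -1.61 and -1.76. Pdrg1 was at 2.86 and 1.19 at those ages, and Gldn at -1.26 and -1.44.

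Probes of the same gene often gave different values. For 948 genes with several probes detected on both arrays the median gap between the differences of the brightest pair was 0.23. The correlation r between the differences of that pair was only 0.29 over these genes. Of 15 such genes with a probe past 2-fold lower among that pair, 1 had both past it, Cldn10, a claudin, at -1.17 and -1.06, with a further probe at 0.01. In 5 the other probe had the opposite sign. On the higher side 3 genes had 1 of the pair past 2-fold and 0 had both. Sqle, an enzyme of cholesterol synthesis, was at 0.07 on its brighter and -1.39 on its dimmer probe, Pmp22, a protein of peripheral myelin, at -0.15 and -1.40, and Sgk1, a kinase, at -0.31 and -1.20.

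Few probes past 2-fold at day 14 had the same sign at both other ages. Of 40 higher probes detected on all 6 arrays, 6 were above 0 at both other ages and 25 below 0 at both, and their medians were -0.26 at day 10 and -0.48 at day 35. Over all 10656 probes detected on the 6 arrays, 24.3% were above 0 at both other ages and 29.3% below 0 at both, against 15% and 62.5% of the higher probes. Past 2-fold, 4 were also higher at day 10 and 1 at day 35, while 8 and 13 were lower. Of all 10656 probes, 156 were past 2-fold higher at day 10 and 117 at day 35, and 191 and 103 lower. Of 56 lower probes, 11 were below 0 at both other ages (19.6%) and 19 above 0 at both (33.9%), nearer to the shares of all probes, with medians of -0.31 and 0.51. Past 2-fold, 10 and 5 of them were also lower, and 9 and 13 higher.

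A small group of named probes was past 2-fold in the same direction at both other ages, 16 higher and 12 lower in the knockout. Of these, 8 and 3 had the same sign at day 14, where 52.4% of all named genes were above 0 and 47.4% below. Past 2-fold at all ages stood Gbp2b, higher, and Snx5 and Prkd3, protein kinase D3, lower, the last at -1.01 on day 14. Past 2-fold in the opposite direction at day 14 stood Serpina3n and S100a4, a calcium-binding protein of motile cells, which were higher, and Cartpt, Pdrg1, Tpm2 and Cntnap2, an adhesion molecule of the region beside the node, which were lower. S100a4 read 1084 and 614 at day 14, a difference of 1.09, against -2.30 and -2.12 at days 10 and 35. By position, the 30 named genes nearest to Lif on chromosome 11, 15 on each side, had a median of 0.13, 20 above and 10 below 0. Over all named genes the median was 0.02, with 52.4% above 0. Nefh alone among the 30 was past 2-fold, against 0.532% of all named genes higher and 0.548% lower. Of the 30, 5 had the same sign at all ages, a share not counted over all genes.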

How the data were processed

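Per the labels' protocols, TRIzol was used to extract total RNA from each pool of nerves, and 500 ng were amplified with incorporation of biotin by the Illumina TotalPrep kit. Per the file headers, the arrays are MouseRef-8 BeadChips of 1 colour, exported from BeadStudio 1.5.0.34 without normalization. The deposited files of the single arrays hold a linear mean intensity over the beads of each probe, per the file headers. Their detection score is a fraction from 0 to 1 from the authors' export, and 1 minus this score was taken as the detection p. A deposited table of the series holds the same intensities times 1 factor per array, as set against the per-array files, and leaves 15646 of its 24613 probes blank.

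The per-array files give no gene names. Probes were linked to the identifiers of the table by value, within 0.05 signal units, and named through the platform annotation. Of 8934 linked probes 8047 had 1 symbol (6656 genes) and 887 none, and 0 symbols needed an update. The gene number in the design name, not used for the link, was equal for 97.1% of 3182 probes that carry one. The link by value and the normalization described next were each tested on simulated data, and the naming was not.

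Background was corrected in R 4.3.3 with limma 3.58.1 (normexp from detection p-values, offset 16), 5 control rows were left out, and the 6 arrays were quantile normalized and taken to log2. No build is given for the array, so array coordinates are not printed. With 1 array a group no test was run, and arrays give no depth, so their number limits the precision. A gene is represented by its probe with the brightest day 14 signal, and a list by its counts and median beside all named genes. Named are the 20 highest and 20 lowest probes, genes among the 10 largest bounds each way, and Lif and Il6st. From the 35 lists (1106 distinct genes), many but not all of the 3 defining members and 4 largest differences are named. Some lists have no member named, and which of these members are given follows no fixed rule. Other list members named were chosen after their values were seen. The comparison and the lists were chosen with earlier results of these data known. Alternatives varied normalization, background correction, detection limit and probe choice.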

Additional observations from a re-analysis of the deposited data

Results flagged for a closer look

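In 12 of 33 lists with at least 5 genes the median difference at day 14 lay on one side of 0 and the medians of days 10 and 35 on the other, and in 4 of them all 3 medians were at least 0.2 from 0. The median was 0.60 for microglia and macrophages at day 14, against -0.21 and -0.45. It was 0.28 for interferon and antigen presentation, against -0.51 and -0.37, and 0.26 for reactive astrocytes, against -0.48 and -0.35. For endothelial genes it was -0.27, against 0.46 and 0.27. Each age has 1 array a genotype, and the difference between ages was not tested. The Y chromosome genes Eif2s3y and Kdm5d were detected on both day 14 arrays. Eif2s3y was not detected in the day 10 wild type, and neither gene in the day 35 knockout. What part this has in the contrast of ages was not tested. No list was set against an age with a replicate, and several genes stand in more than 1 of these lists. The share of all genes with a day 14 sign opposite to both other ages was not counted, so the count of lists has no background beside it.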

How the results depend on the processing

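No paired analysis was possible because each genotype has 1 array at day 14, which also leaves no replicate to leave out. Probes past 2-fold, 50 higher and 65 lower as reported, numbered 21 and 143 without normalization between arrays, 18 and 19 without background correction, 21 and 26 with an offset of 50, and 16 and 16 in the authors' deposited table. Without normalization the median of all named genes was -0.21, and the list medians shift by about as much. They were then 0.35 for microglia and macrophages, 0.047 for the LIF receptor and STAT3 list, 0.20 for rods, -0.51 for endothelial, -0.70 for skeletal muscle and -0.24 for myelin genes. The sign turned there in 10 lists, 5 of them with a reported median within 0.1 of 0, and in the other 5 to -0.041 for oligodendrocyte precursors, -0.071 for phagocyte lysosomes, -0.054 for the cell cycle, -0.087 for neurons and -0.11 for Schwann cells. The microglia median was 0.50 without background correction and 0.49 in the deposited table. The rod median was 0.25 without background correction, 0.28 with offset 50, 0.24 in the deposited table, 0.20 at a detection p below 0.01 and 0.88 with no detection filter. The skeletal muscle median was -0.31, -0.34 and -0.33 under the first 3 of these and -0.34 at the stricter detection limit. The cause of these shifts was not tested. Median scaling and quantile normalization of the 2 arrays alone left all 35 medians, of lists and of all named genes, within 0.1 of the reported ones. Of the 40 ranked genes, all past 2-fold as reported, 13 were not detected on both arrays at a detection p below 0.01, Sag and Gnat1 among them, and 18 came short of it in the deposited table and 18 without background correction, 14 with offset 50, 6 without normalization and 5 with the mean over a gene's probes, and 0 changed sign.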
